A study of Mus musculus with 2 samples.

Results

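The nuclear genes for mitochondrial ribosomal proteins were described in 2 RNA sequencing libraries of RAW264.7 cells, a mouse macrophage-like line. Members were all genes of the deposited table whose symbol is Mrpl or Mrps followed by a number and at most 1 letter. The rule found 78 of 24034 genes, 29 with an Mrps symbol (named for the small subunit) and 49 with an Mrpl symbol (named for the large subunit), and used no measured value. One library came from cells labelled SFRS8 siRNA and the other from cells labelled negative control. Both groups were RAW264.7 cells grown in serum-supplemented DMEM, and their titles hold the mark 5 d, with no event given from which the days count. The title of the negative control library also holds the mark WT, and that of the siRNA library the mark si. Sfswap, which regulates alternative splicing, was formerly named SFRS8. Each condition had a single library, so there were no replicates to check a difference against and no test between the conditions was possible.

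Mitochondria carry their own ribosome, which translates the few messenger RNAs of the mitochondrial genome, all of them for membrane subunits of the respiratory chain and ATP synthase. Its ribosomal RNAs are made inside the organelle, while every one of its proteins is encoded in the nucleus, made in the cytosol and imported. Many of these proteins descend from bacterial ribosomal proteins, and others exist only in mitochondrial ribosomes. In macrophages, respiratory chain function shifts with activation state, and the mitochondrial ribosome supplies part of that chain.

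The libraries held 55411201 (SFRS8 siRNA) and 54847367 (negative control) estimated counts, of which the members took 0.487% and 0.469%. Sfswap was not lower in the library labelled SFRS8 siRNA, at 3.38 FPKM against 2.92 FPKM in the control library (1664 and 1423 counts). Directions below therefore compare libraries by their labels, siRNA over control, and not a measured loss of Sfswap. The macrophage marker Lyz2 was abundant in both, at 1129859 and 1251570 counts. All 26 listed heart muscle markers were higher in the siRNA library, with 17159 against 1244 summed counts (ratio of counts per library total 13.7, 95% interval of counting error 12.2 to 15.4), and 12 of them were at 0 counts in the control library. Of the 26, 15 had a mean of at least 1 FPKM, and the interval of Cox7a1 (376 against 332 counts) reached past 1. Summed red blood cell markers stood at 423 against 6 counts, and summed fibroblast markers at 409 against 16 counts. Of 8 fibroblast markers, 6 were higher in the siRNA library and none had a mean of at least 1 FPKM. The part of these transcripts in the values of the members was not tested.

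All 78 members were expressed in both libraries, and as a group they differed little between them. FPKM scales fragments by transcript length and library size, so levels compared between genes also depend on the transcript lengths used. A difference is log2(FPKM + 1) in the siRNA library minus that in the control library, and a gene was counted as higher or lower when it passed 1.5-fold on that scale. Every member had a mean of at least 1 FPKM, the minimum for a gene to be counted. No member was at least 1.5-fold higher, while 4.91% of the 10214 genes counted were. Mrpl53 and Mrpl11 were at least 1.5-fold lower, 2 of 78 members, against a background of 2.18% of all genes. Of these, Mrpl53 was past 2-fold, a size that 0.783% of all genes reached downwards.

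The median difference of the members was 0.083, and that of all genes counted was 0.11. Differences were above 0 for 57 of the 78 members (73.1%) and for 66.9% of all genes. Measured from the median of all genes, 33 of the 78 members lay above it, against 50.0% of all genes. This side depended on the setting, since 47 of the 78 lay above it when no minimum FPKM was required. The members were spread less widely than genes in general, but several related lists described below were nearly as narrow. The middle 50% of the members lay between -0.0072 and 0.16, and the middle 50% of all genes between -0.054 and 0.29. This range was 0.17 wide for the members and for cytosolic ribosomal protein genes. It was 0.19 wide for mitochondrial import and for ribosome assembly genes, and 0.21 for nuclear respiratory chain genes. It was wider for mitochondrial translation factors, at 0.28, messenger RNAs of the mitochondrial genome, at 0.29, and mitochondrial DNA upkeep and transcription, at 0.38. Restricting all genes to the abundance range of the members left 6744 genes, whose middle 50% lay between -0.054 and 0.28. Within that range these genes were still less abundant. Their medians were 10.2 FPKM in the siRNA library and 9.42 FPKM in the control library, against 20.7 FPKM and 20.2 FPKM for the members. The order of the 78 levels was nearly the same in both libraries, with a Spearman rho of 0.97 taken across genes and not across replicates.

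**Figure D1:**
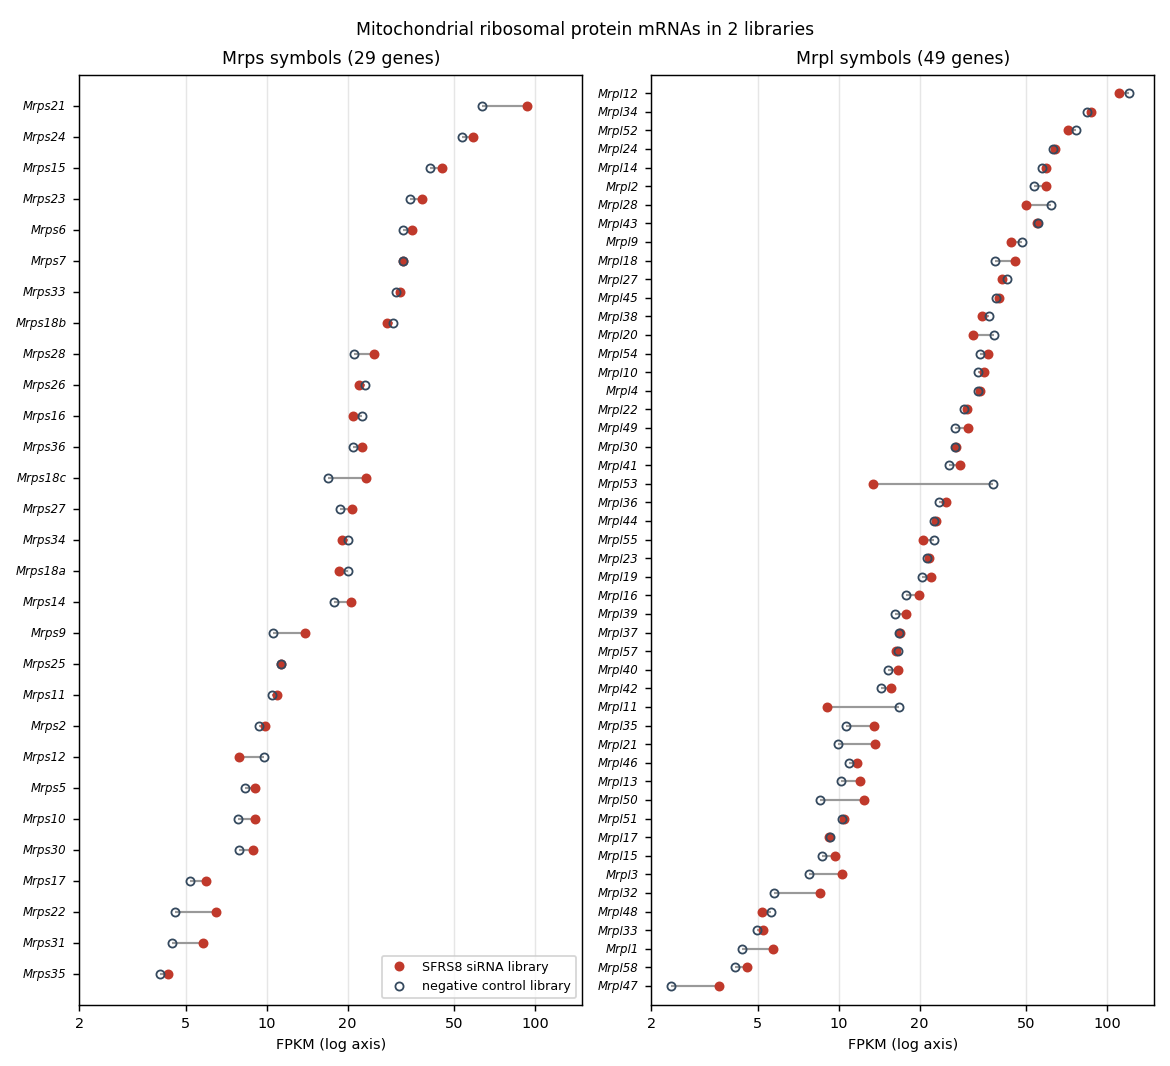
FPKM of each Mrps gene (left) and Mrpl gene (right) in the SFRS8 siRNA library (filled red) and the negative control library (open), on a log axis, 1 library per group, with a grey line joining the 2 values of a gene. Most pairs of points nearly coincide, and Mrpl53 and Mrpl11 show the widest gaps, both lower in the siRNA library.

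Levels differed far more between members than between libraries, although most of these proteins occur once in each ribosome. The highest member stood 30.9-fold above the lowest in the siRNA library and 51.0-fold above it in the control library. Median levels were 20.7 FPKM in the siRNA library and 20.2 FPKM in the control library. Mrpl12, the most abundant member, stood at 111 FPKM in the siRNA library and 121 FPKM in the control library. It encodes the protein of the large subunit's flexible stalk, which recruits translation factors and, unlike most members, is present in several copies per ribosome. Mrpl34 followed at 87.3 FPKM against 84.3 FPKM, Mrps21 at 93.1 FPKM against 63.4 FPKM, and Mrpl52 at 71.5 FPKM against 76.8 FPKM. Mrpl24 stood at 63.9 FPKM against 63.0 FPKM. Mrpl34, Mrps21 and Mrpl24 have bacterial counterparts, while Mrpl52 does not.

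The least abundant members stood between 2 and 6 FPKM. Mrpl47, a protein at the exit of the nascent chain tunnel, was lowest at 3.58 FPKM in the siRNA library and 2.36 FPKM in the control library. Mrps35, a small subunit protein without a bacterial counterpart, stood at 4.30 FPKM against 4.01 FPKM. Mrpl58, a peptidyl-tRNA hydrolase built into the large subunit that can release stalled chains, stood at 4.56 FPKM against 4.09 FPKM. Mrpl1 stood at 5.70 FPKM against 4.38 FPKM and Mrpl33 at 5.24 FPKM against 4.97 FPKM. Mrpl47 still had 972 and 635 estimated counts, and no member had fewer than 505 counts in the siRNA library or 617 in the control library, both for Mrps12.

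The lowest difference of all members, that of Mrpl53, lay in a gene most of whose exons also belong to another gene. Mrpl53 encodes a large subunit protein found only in mitochondrial ribosomes (ENSMUSG00000030037, chromosome 6, 83109040 to 83109939, plus strand). It stood at 13.5 FPKM in the siRNA library and 37.5 FPKM in the control library, a difference of -1.41 from 654 and 1800 counts. The ratio of counts per library total was 0.360, with a 95% interval of 0.30 to 0.432 that covers counting error only. Gm42688, annotated as protein-coding on the same strand, covers 695 of the 790 exonic bases of Mrpl53 in GENCODE vM21. It moved the other way, at 9.53 FPKM against 3.50 FPKM, from 2121 and 772 counts (ratio 2.72, interval 2.30 to 3.22). The counts of both genes summed to 2775 in the siRNA library and 2572 in the control library, a ratio of 1.07 (0.958 to 1.19). The sum was thus not lower in the siRNA library, and the 2 genes cannot be told apart from whole-gene values.

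**Figure D2:**
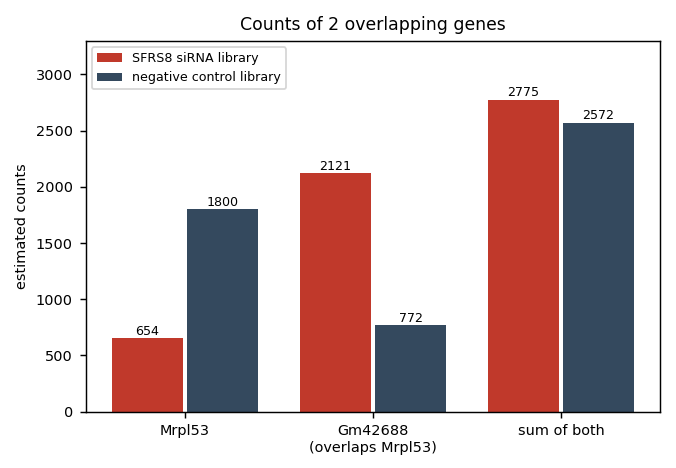
Estimated counts of Mrpl53, of the gene Gm42688 that overlaps it on the same strand, and of their sum, in the SFRS8 siRNA library (red, left of each pair) and the negative control library (dark), 1 library per group. Mrpl53 had 654 against 1800 counts and Gm42688 2121 against 772, while the sums were 2775 and 2572.

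Mrpl11 was the only member past 1.5-fold that shared neither exons nor sequence with another gene. Its protein sits at the base of the stalk, next to where translation GTPases bind. The gene (ENSMUSG00000024902, chromosome 19, 4962147 to 4966999, plus strand) had 1785 counts in the siRNA library and 3283 in the control library, or 9.0 FPKM against 16.7 FPKM. This gave a ratio of counts of 0.538 (0.478 to 0.604) and a difference of -0.83. Its stalk partners did not share this size of difference. Mrpl10, which anchors the stalk, stood at 34.9 FPKM against 32.9 FPKM (ratio of counts 1.06, 0.963 to 1.16), and for Mrpl12 the ratio was 0.918 (0.870 to 0.968).

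The other members among the 10 lowest differed by less than 0.3 on the log2 scale. Mrpl28 stood at 50.0 FPKM in the siRNA library and 61.6 FPKM in the control library, a ratio of counts of 0.812 (0.748 to 0.881). Mrps12, a protein of the decoding centre, stood at 7.90 FPKM against 9.74 FPKM (0.810, 0.635 to 1.03). Mrpl20, whose counterpart in Escherichia coli acts early in large subunit assembly, stood at 31.6 FPKM against 37.9 FPKM (0.833, 0.758 to 0.916). The interval of Mrps12 reached past 1, so at this depth its ratio could not be distinguished from an equal share of counts. Mrpl9, Mrpl55, Mrpl12, Mrps18a and Mrps16 completed this side, with differences between -0.14 and -0.10. The intervals of Mrpl55 (0.779 to 1.06), Mrps18a (0.847 to 1.004) and Mrps16 (0.846 to 1.01) also reached past 1, and those of Mrpl9 and Mrpl12 did not.

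The highest difference was that of Mrps21, the counterpart of a bacterial small subunit protein. Mrps21 (ENSMUSG00000054312, chromosome 3, 95862634 to 95871519, minus strand) stood at 93.1 FPKM in the siRNA library and 63.4 FPKM in the control library. It had 4223 and 2847 counts, a difference of 0.55 and a ratio of counts of 1.47 (1.33 to 1.62). It therefore fell just short of the 1.5-fold limit, and none of its longest transcript matched another gene. Mrpl32, which in mitochondria is cleaved by the m-AAA protease before it joins the ribosome, stood at 8.50 FPKM against 5.71 FPKM (1.49, 1.31 to 1.68). Mrpl50 stood at 12.4 FPKM against 8.50 FPKM (1.45, 1.24 to 1.70). For Mrpl47 the ratio was 1.52 (1.23 to 1.86), while its difference on the log2(FPKM + 1) scale was 0.45, because the added 1 weighs more at low levels.

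The next members on this side were Mrps18c, Mrps22, Mrpl21, Mrps9, Mrpl3 and Mrpl35, with differences between 0.32 and 0.44. Mrps22, a small subunit protein without a bacterial counterpart, stood at 6.49 FPKM in the siRNA library and 4.56 FPKM in the control library (ratio of counts 1.42, 1.22 to 1.67). Mrpl3, which reaches towards the peptidyl transferase centre, stood at 10.3 FPKM against 7.77 FPKM (1.33, 1.21 to 1.46). Mrps9 stood at 13.9 FPKM against 10.6 FPKM (1.32, 1.21 to 1.44). On the log2(FPKM + 1) scale all 10 of the highest members were under 1.5-fold, while the ratio of counts of Mrpl47 was just above it.

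Divided by symbol, both subunits had medians close to that of all genes. The Mrps genes had a median difference of 0.11, with 22 of 29 above 0, and the Mrpl genes of 0.052, with 35 of 49 above 0. The background share above 0 was 66.9%. Symbols do not always name the subunit a protein sits in. Mrps30 and Mrps18a are part of the large subunit in solved structures, and the GO terms in the deposited table place both there, Mrps18a also in the small subunit. Mrps36 is an adaptor of the oxoglutarate dehydrogenase complex, a term the table lists for it beside that of the small subunit. With subunits assigned by structure, 26 small subunit genes had a median of 0.12 and 51 large subunit genes a median of 0.052. Mrps30 stood at 8.90 FPKM against 7.85 FPKM, Mrps18a at 18.5 FPKM against 20.1 FPKM and Mrps36 at 22.6 FPKM against 20.9 FPKM.

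Summed over genes, the small subunit by structure held 82219 counts in the siRNA library and 74692 in the control library (ratio 1.09, 1.07 to 1.11). The large subunit held 185850 and 180843 counts (1.02, 1.0 to 1.03). Part of the small subunit sum came from Mrps21, with 4223 against 2847 counts. The 46 members with a bacterial counterpart had a median difference of 0.094, with 36 above 0, and the 31 members specific to mitochondria one of 0.057, with 20 above 0. The 16 small subunit members with a bacterial counterpart had the highest median of these groups, 0.14, with 14 above 0. Of these 16, 9 lay above the median of all genes, and 66.9% of all genes were above 0. No test between these groups was possible with 1 library per condition.

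The 3 Mrps18 genes arose by duplication and encode proteins that occupy different sites of the ribosome. Mrps18c stood at 23.3 FPKM in the siRNA library and 16.9 FPKM in the control library (ratio of counts 1.38, 1.18 to 1.62). Mrps18b stood at 28.1 FPKM against 29.6 FPKM (0.948, 0.864 to 1.04), and for Mrps18a the ratio was 0.922 (0.847 to 1.004). None of the 3 passed 1.5-fold. Of the longest Mrps18b transcript, 38.6% also matches the pseudogene Gm13552, which had 133 against 130 counts.

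Besides Mrpl53, reads could be split between genes for 11 further members, none of them past 1.5-fold. Of these, Mrps18c and Mrpl3 had the highest differences, 0.44 and 0.37. Mrps34 shares 763 exonic bases with Nme3 on the same strand, with 2414 against 2521 counts for Mrps34 and 272 against 367 for Nme3. Mrps6 shares 159 exonic bases with Slc5a3, an inositol transporter, with 3258 against 3001 counts for Mrps6 and 1500 against 1096 for Slc5a3. For Mrpl27, 72.5% of the longest transcript matched other genes, among them the pseudogene Gm6304 with 112 against 82 counts. The 66 members with no exons shared on the same strand and less than 25% of the longest transcript matching another gene had a median difference of 0.088. Of these, 49 were above 0 (74.2%, against 66.9% of all genes).

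Across the members, the difference went with the GC content of the transcript, as it did across all genes. Spearman's rho of difference and GC content was -0.39 over the 78 members and -0.46 over all 10214 genes counted. These are values across genes of the same 2 libraries, so they are descriptions only. The 20 members of lowest GC content (38.6% to 44.9%) had a median difference of 0.16, with 18 above 0 (90.0%). All genes in that GC range had a median of 0.31, with 90.8% above 0. In the 2 GC ranges between, of 19 members each, the medians were 0.062 (45.1% to 49.7%) and 0.080 (49.8% to 52.8%). The medians of the members thus did not fall in order, whereas those of all genes did, at 0.18 and 0.060 in these 2 ranges. The 20 members of highest GC content (53.3% to 60.4%) had a median of 0.036, with 13 above 0 (65.0%). All genes in that range had a median of -0.018, with 46.5% above 0. Mrpl32 and Mrpl50 belong to the AT-rich end, at 42.2% and 42.3% GC, and Mrps12 and Mrpl28 to the GC-rich end, at 56.5% and 58.6%. Mrpl21 went against this relation, with a difference of 0.42 at 53.3% GC. Mrps21, at 52.7%, and Mrpl11, at 48.8%, stand at neither end. What produces the relation to GC content was not tested.

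**Figure D3:**
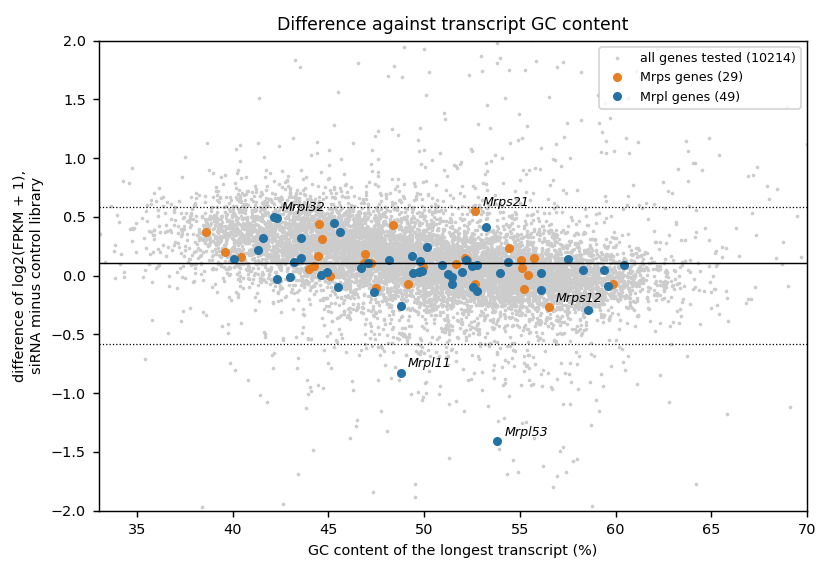
Difference of log2(FPKM + 1), siRNA minus control library, against GC content of the longest transcript for Mrps genes (orange), Mrpl genes (blue) and all genes counted (grey). The solid line is the median of all genes and dotted lines mark 1.5-fold; 70 genes, none of them a member, lie outside the axes. Members follow the downward drift of the grey cloud, and only Mrpl11 and Mrpl53 lie beyond a dotted line.

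The members are scattered over the genome but share features of their starts. They lie on 17 chromosomes, with 11 on chromosome 11 and 8 on chromosome 17. For 33 of 78 members (42.3%), another protein-coding gene starts within 1000 bases on the opposite strand, a head-to-head arrangement, against 1651 of 8747 other protein-coding genes counted (18.9%). In 21 of the 33 the annotated starts are at most 200 bases apart. Several partners also act in mitochondria. Mrpl36 faces Ndufs6, a complex I subunit, with starts 29 bases apart, Mrpl47 faces Ndufb5, another complex I subunit, and Mrps12 faces Sars2, the mitochondrial seryl-tRNA synthetase. Mrpl43 faces Twnk, the helicase of mitochondrial DNA. Mrps11 and Mrpl46 face each other, the only case in which both genes were members.

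Partners of a pair did not always differ alike. Mrpl47 stood at 3.58 FPKM against 2.36 FPKM and Ndufb5 at 12.0 FPKM against 8.69 FPKM, differences of 0.45 and 0.43, and 616 exonic bases of Mrpl47 lie opposite Ndufb5. Mrps11 stood at 10.9 FPKM against 10.4 FPKM and Mrpl46 at 11.7 FPKM against 10.9 FPKM, differences of 0.061 and 0.093. Mrpl18 and Tcp1, a subunit of the cytosolic chaperonin, had differences of 0.24 and 0.29. In contrast, Mrps12 had a difference of -0.27 and Sars2 of 0.18, and Mrpl21 of 0.42 and Ighmbp2 of -0.087. Of the 33 partners, 25 had a mean of at least 1 FPKM, and their median difference was 0.16, against 0.11 for all genes. None of these 25 was past 1.5-fold, a limit that 4.91% of all genes passed upwards and 2.18% downwards. Exons of 27 members, head-to-head or not, overlap exons of a gene on the opposite strand. Strandedness is not given in the sources used here, so reads of such overlaps may not be told apart.

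**Figure D4:**
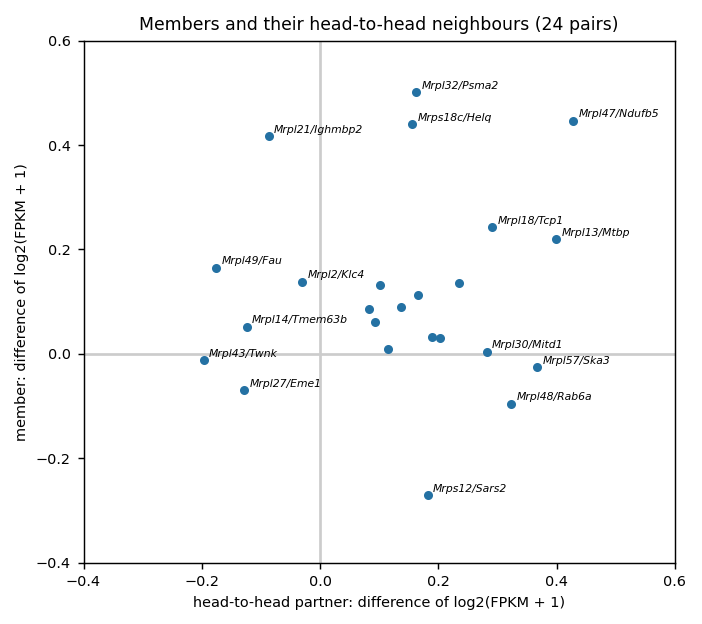
Difference of log2(FPKM + 1), siRNA minus control library, of each member (vertical axis) against that of its head-to-head protein-coding neighbour (horizontal axis) for the 24 pairs whose partner had a mean of at least 1 FPKM (Mrps11 and Mrpl46, partners of each other, form 1 pair). Mrpl47 and Ndufb5 are both high, whereas Mrps12 is below 0 with Sars2 above 0 and Mrpl21 is above 0 with Ighmbp2 below 0.

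Promoter letters recognised by regulators of nuclear genes for mitochondria were frequent among the members. NRF1 (nuclear respiratory factor 1), GABPA (an ETS family factor) and YY1 are known activators of such genes. Windows from 250 bases before to 50 bases after the start, from RefSeq on GRCm38.p6, were found for 69 of 78 members (75 windows). The NRF1 letters, GCGC and TGCGC with any 1 base between them, on either strand, were in 17.3% of member windows, 11.3% of windows of genes counted here and 4.60% of all 32851 windows. The ETS letters CCGGAAG were in 34.7%, 20.1% and 8.86% of these windows, and the YY1 letters AAGATGGCG in 10.7%, 3.54% and 1.40%. None of these 3 motifs contains another. The TATA box letters TATAAA were in 6.67% of member windows, 6.55% of windows of genes counted and 13.6% of all windows. At least 1 of the first 3 motifs was present for 41 of the 69 members.

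Members with and without these letters had medians within 0.1 of each other on the log2 scale. The 13 members with the NRF1 letters had a median difference of 0.031, against 0.098 for the 56 without. For the ETS letters the medians were 0.030 for 26 members with and 0.11 for 43 without, and for the YY1 letters 0.10 for 8 with and 0.077 for 61 without. Of the activators themselves, Gabpa stood at 3.59 FPKM in the siRNA library and 2.51 FPKM in the control library and Yy1 at 10.2 FPKM against 6.18 FPKM, while Nrf1 stood at 2.08 FPKM against 2.10 FPKM. Yy1 passed 1.5-fold, as did 4.91% of all genes.

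The windows of 4 members show how these letters lie. Capitals mark matches to the NRF1, ETS or YY1 letters on either strand, and the start follows the first 250 bases of each window. Mrps21 and Mrpl32 are shown as the members with the highest differences, Mrpl11 as the lowest member without shared reads, and Mrps11 because its window overlaps that of Mrpl46.
Mrps21 (chr3:95871465-95871764, minus strand): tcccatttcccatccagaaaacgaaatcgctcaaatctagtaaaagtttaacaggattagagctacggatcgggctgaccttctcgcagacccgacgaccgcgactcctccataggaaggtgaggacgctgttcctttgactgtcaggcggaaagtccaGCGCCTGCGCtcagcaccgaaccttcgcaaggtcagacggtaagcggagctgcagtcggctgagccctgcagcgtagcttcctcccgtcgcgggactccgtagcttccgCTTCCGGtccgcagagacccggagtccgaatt
Mrpl32 (chr13:14612988-14613287, minus strand): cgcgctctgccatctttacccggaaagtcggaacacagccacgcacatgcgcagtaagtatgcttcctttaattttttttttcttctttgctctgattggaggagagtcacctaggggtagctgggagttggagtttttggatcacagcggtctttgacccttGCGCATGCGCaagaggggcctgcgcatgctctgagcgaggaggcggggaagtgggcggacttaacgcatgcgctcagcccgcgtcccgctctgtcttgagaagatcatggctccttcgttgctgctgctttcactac
Mrpl11 (chr19:4962056-4962355, plus strand): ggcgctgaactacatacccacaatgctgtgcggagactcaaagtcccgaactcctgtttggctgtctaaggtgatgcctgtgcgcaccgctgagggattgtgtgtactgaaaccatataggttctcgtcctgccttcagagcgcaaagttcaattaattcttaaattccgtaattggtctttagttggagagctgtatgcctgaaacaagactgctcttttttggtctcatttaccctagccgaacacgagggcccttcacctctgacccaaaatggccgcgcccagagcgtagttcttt
Mrps11 (chr7:78782881-78783180, plus strand): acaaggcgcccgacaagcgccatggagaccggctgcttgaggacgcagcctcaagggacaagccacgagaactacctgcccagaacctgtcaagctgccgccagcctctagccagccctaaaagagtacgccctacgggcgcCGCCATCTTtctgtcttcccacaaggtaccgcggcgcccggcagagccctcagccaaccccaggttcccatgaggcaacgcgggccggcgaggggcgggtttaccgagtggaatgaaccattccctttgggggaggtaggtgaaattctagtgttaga

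In these windows the NRF1 letters began at base 160 for Mrps21 and at base 164 for Mrpl32, close to the same distance before the start. Mrps21 also held the ETS letters at base 269, just after the start, on the opposite strand. The Mrpl11 window held none of the 3 motifs. The Mrps11 window held the YY1 letters at base 143 on the opposite strand, and its RefSeq start lies 42 bases from that of Mrpl46, so that 141 bases of their windows coincide. In GENCODE vM21, which gave the head-to-head counts, their starts lie 412 bases apart. A match of letters is no evidence that a factor binds there, and no match says only that these letters are not in this window.

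Genes that work with these proteins were set beside them. The 5 proteins of the mitochondrial ribosome whose genes bear other names are Dap3, Ptcd3, Chchd1, Aurkaip1 and Gadd45gip1. They had a median difference of 0.20, with 4 of 5 above 0, against 66.9% of all genes, and none past 1.5-fold. Dap3, a GTP-binding protein of the small subunit, stood at 19.5 FPKM in the siRNA library and 17.8 FPKM in the control library. Chchd1 stood at 85.3 FPKM against 73.4 FPKM, Ptcd3, an RNA-binding protein of the small subunit, at 3.72 FPKM against 2.67 FPKM, and Aurkaip1 at 32.4 FPKM against 35.7 FPKM.

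Of 26 genes for assembly of the mitochondrial ribosome and modification of its RNA, 22 were counted, with a median of 0.083, and none passed 1.5-fold in either direction. Of these 22, 16 were above 0 (72.7%, against 66.9% of all genes), and differences ran from -0.21 to 0.37. Ddx28, a helicase of large subunit assembly, stood at 6.98 FPKM against 5.19 FPKM and Mettl17, a factor of small subunit assembly, at 1.63 FPKM against 1.11 FPKM. Noa1, a mitochondrial GTPase of ribosome assembly, stood at 10.2 FPKM against 8.2 FPKM, and Rbfa, which acts in small subunit maturation, at 53.3 FPKM against 47.9 FPKM. Mpv17l2 was nearly equal, at 46.0 FPKM against 45.9 FPKM. Of 17 mitochondrial translation factors, 16 were counted, with a median of 0.11, and 1 was past 1.5-fold higher, against a background of 4.91% of all genes. This was Slirp, which with Lrpprc stabilises mitochondrial messenger RNAs, at 13.0 FPKM against 7.76 FPKM (ratio of counts 1.68, 1.47 to 1.91). Lrpprc stood at 5.75 FPKM against 4.06 FPKM and Mtif2, the initiation factor that places the first tRNA, at 3.48 FPKM against 2.05 FPKM. The most abundant, Tufm, the elongation factor that delivers aminoacyl-tRNA, stood at 83.4 FPKM against 83.7 FPKM.

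Among genes of mitochondrial DNA upkeep and transcription, Tfb2m, which opens the mitochondrial promoters for the RNA polymerase, was past 1.5-fold higher, at 4.54 FPKM in the siRNA library and 2.57 FPKM in the control library (ratio of counts 1.76, 1.39 to 2.25). Tfam, which packages mitochondrial DNA, stood at 3.76 FPKM against 2.55 FPKM and Polrmt, the RNA polymerase, at 4.89 FPKM against 5.21 FPKM. Tfb2m was the only 1 of the 14 genes counted to pass, against the same background of 4.91%, and the median of the 14 was 0.17.

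The ribosomal RNAs that the members bind were both lower in the siRNA library. The large subunit RNA mt-Rnr2 stood at 256 FPKM against 419 FPKM, with 24801 and 40311 counts (ratio 0.609, 0.590 to 0.629). The small subunit RNA mt-Rnr1 stood at 688 FPKM against 895 FPKM (ratio 0.768, 0.748 to 0.788). Of these, mt-Rnr2 was past 1.5-fold lower. Both libraries were made from RNA selected by its poly(A) tail, and the part of that selection in these values was not tested. The 13 messenger RNAs of the mitochondrial genome, which this ribosome translates, had a median difference of 0.099, with 12 of 13 above 0 and none past 1.5-fold. Of all genes, 66.9% were above 0, and 6 of the 13 lay above the median of all genes, 0.11. The complex I subunit mt-Nd1 stood at 377 FPKM in the siRNA library and 273 FPKM in the control library (ratio of counts 1.38, 1.32 to 1.44) and mt-Cytb, of complex III, at 533 FPKM against 395 FPKM. The most abundant, mt-Co1 of complex IV, had 1166872 against 1144328 counts (1.01, 1.0 to 1.01).

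The cytosolic ribosomal protein genes were mostly lower in the siRNA library and far more abundant than the members, a contrast that could not be tested. Of 78 cytosolic genes counted, 12 were above 0 (15.4%, against 66.9% of all genes), with a median of -0.15. Their median level was 705 FPKM in the siRNA library and 787 FPKM in the control library. Of 74 nuclear respiratory chain genes counted, 25 were above 0 (33.8%), with a median of -0.055 and median levels of 78.5 FPKM and 82.9 FPKM. Among them Cox5b, a complex IV subunit, stood at 76.9 FPKM against 105 FPKM and Ndufs1, of complex I, at 9.16 FPKM against 6.53 FPKM. Both lists are more abundant than the members, and across all genes the difference decreased with abundance (Spearman rho -0.22, and -0.34 within the members). The part of abundance in the contrast between the lists was not tested.

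**Figure D5:**
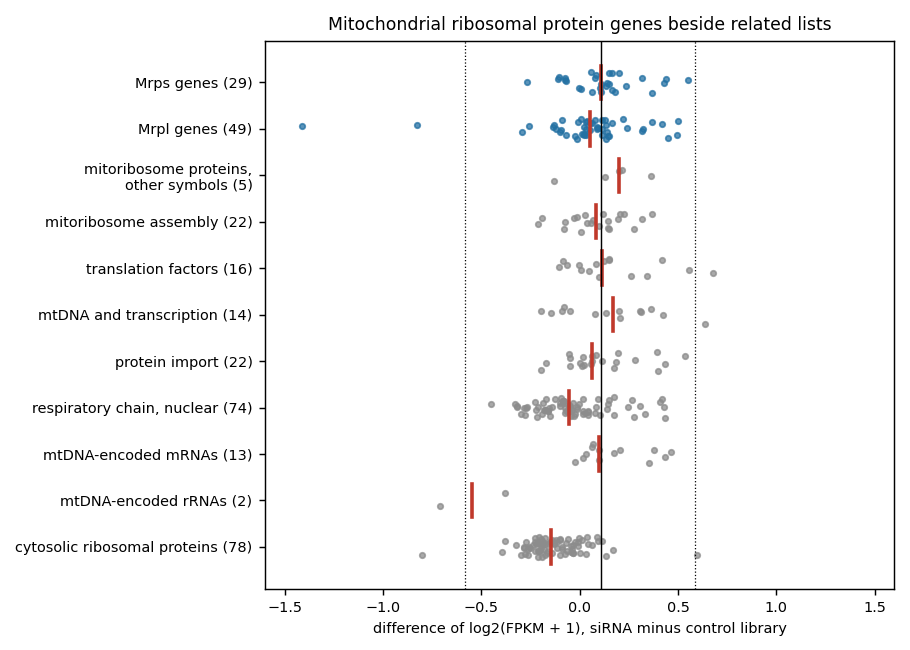
Difference of log2(FPKM + 1), siRNA minus control library, for each gene counted (points) of the Mrps and Mrpl genes (blue) and of related lists (grey), with list medians (red), the number of genes in parentheses, the median of all genes (solid line) and 1.5-fold limits (dotted). The Mrps and Mrpl medians, 0.11 and 0.052, lie near the solid line and the cytosolic ribosomal protein median, -0.15, lies below it; 1 cytosolic gene is beyond the axis.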

How the data were processed

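Per the labels' protocols, poly(A) RNA was sequenced in pairs on a NovaSeq; that text also speaks of an adipose type, which the other labels do not explain. HISAT2 2.0 and StringTie 1.3.0 are listed in the submitters' processing notes; the sources used here give no build, annotation or strandedness. The column headers of the deposited table name FPKM, a unit scaled for transcript length and library size. The authors also deposited estimated counts, all whole. Of those from 1 to 20, 45.1% (siRNA) and 42.7% (control) are multiples of 4, so intervals use counts divided by 4 as read pairs. They are exact Clopper-Pearson limits at the 95% level, conditional on the sum of both libraries. They cover counting error only, since no source names molecular identifiers and PCR copies would count again. No column of values was left unmatched.

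Differences are siRNA minus control log2(FPKM + 1); genes needed a mean FPKM of 1 or more. Adding 1 understates differences of low genes. With 1 library per group there was no test. Members and lists were chosen with earlier results of these data known. Named members were the 10 highest and 10 lowest differences, the 5 most and 5 least abundant, those past 1.5-fold, the Mrps18 genes and those with shared reads. Other genes came from the 4 largest differences and 2 most abundant per list, with the 5 ribosome proteins of other names in every case; head-to-head pairs, Mrpl10, Mrps30, Nrf1, Polrmt and Ppargc1a were named after their values were seen. Coordinates are as deposited; 69 of 78 members match GENCODE vM21 (GRCm38) exactly, and all 24034 identifiers are found there, so it was used for transcripts, overlaps and head-to-head starts. Reads were taken as possibly split where exons overlapped another gene on the same strand or when blastn 2.17.0 placed 25% or more of the longest transcript on another gene (98% identity, 100 nt minimum). Lowess adjustments for GC content and abundance used a span of 0.3. The calculation was tested on simulated counts. Software was matplotlib 3.10.9, statsmodels 0.14.6, scipy 1.17.1, pandas 2.3.3, numpy 2.4.6 and Python 3.11.15.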

Additional observations from a re-analysis of the deposited data

How the results depend on the processing

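With 1 library per group, leaving out a library was not possible, and no paired analysis was possible because each group holds 1 library. The median difference of the members (0.083; Mrps 0.11, Mrpl 0.052) is small, and its sign depends on scaling. With all differences shifted so that the all-gene median is 0, a shift of 0.11, the medians were -0.026 for all members, -0.0019 for Mrps and -0.058 for Mrpl genes. Adjusted for GC content the median of all members was 0.062. Adjusted for abundance it was 0.12 for all members, 0.14 for Mrps and 0.11 for Mrpl genes. Without members whose reads may split, the Mrps median was 0.14 and 1 member, Mrpl11, was past 1.5-fold lower. A limit of 2-fold also left 1 lower member, Mrpl53. With the counts of Mrpl53 and Gm42688 summed, an alternative chosen after seeing the data, the difference of Mrpl53 was 0.093 in place of -1.41, and 1 member, Mrpl11, was past 1.5-fold lower. The number of members past 1.5-fold higher was 0, except under the GC and abundance adjustments, where it was 1, Mrps21 at 0.62 and 0.66. Mrpl11 stayed past 1.5-fold lower under every alternative run other than the limit of 2-fold. Pseudocounts of 0.1 and 5, no filter or a minimum of 5 FPKM, counts scaled to the library total, and subunits assigned by structure kept the medians between 0.071 and 0.091 for all members, 0.092 and 0.12 for Mrps and 0.048 and 0.052 for Mrpl genes, with the same 2 lower members. Above the all-gene median lay 33 of 78 members in the main setting, after median scaling and after GC adjustment. With a pseudocount of 0.1 or counts scaled to the library total, 30 of 78 lay above it. With a pseudocount of 5 it was 40, with no filter 47 and adjusted for abundance 42. At a minimum of 5 FPKM it was 40 of 75. The cause of these shifts was not tested. At this depth, the ratio of Mrps12, from 505 and 617 counts, could not be distinguished from an equal share.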

Other observations

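Genes for the import of proteins into mitochondria, the route that every mitochondrial ribosomal protein takes, had a median difference of 0.061 over 22 genes, with 17 above 0 and none past 1.5-fold. The background share above 0 was 66.9%, and 9 of the 22 lay above the median of all genes. Hspd1, the chaperonin of the mitochondrial matrix, stood at 146 FPKM in the siRNA library and 101 FPKM in the control library (ratio of counts 1.45, 1.40 to 1.51). Hspa9, the chaperone that pulls proteins through the inner membrane, stood at 123 FPKM against 92.9 FPKM (1.32, 1.28 to 1.37), and Tomm70a, a receptor of the outer membrane, at 8.95 FPKM against 6.37 FPKM (1.40, 1.29 to 1.53). Hspe1, the partner of Hspd1, stood at 164 FPKM against 157 FPKM (1.04, 0.996 to 1.09).

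Of 10 regulators of mitochondrial biogenesis, 9 had a mean of at least 1 FPKM and their median difference was 0.23. Of these 9, 6 were above 0 (66.7%, against 66.9% of all genes). Yy1 was the only 1 past 1.5-fold higher, against a background of 4.91%. Gabpb2 was higher at 1.95 FPKM in the siRNA library and 1.34 FPKM in the control library (ratio of counts 1.46, 1.26 to 1.69). The coactivator Pprc1 stood at 4.19 FPKM in the siRNA library and 5.30 FPKM in the control library (ratio of counts 0.790, 0.692 to 0.902). The nuclear receptor Esrra stood at 17.5 FPKM against 20.2 FPKM (0.866, 0.80 to 0.937). The coactivator Ppargc1a had 10 and 4 counts, too few to compare.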
